A study of Mus musculus with 2 samples.

Results

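The miRNAs described here are 7 mature species known from white blood cells: mmu-miR-142a-5p, mmu-miR-142a-3p, mmu-miR-181a-5p, mmu-miR-181b-5p, mmu-miR-150-5p, mmu-miR-155-5p and mmu-miR-146a-5p. They were chosen by name for what is known of them, with earlier results of these libraries known, and the count table listed all 7 among its 1915 mouse miRNAs. Both libraries came from plasma extracellular vesicles (EVs) of wild-type C57BL/6 mice aged 8 weeks and kept on normal chow, with plasma pooled from about 20 mice per group to a volume of about 10 ml. The sEV library came from sedentary mice, and the eEV library from mice that ran for 60 min on a treadmill to exhaustion, at speeds rising from 10 to 24 m/min, after acclimation on 3 days. EVs were separated by size exclusion chromatography, so the RNA is that of the vesicles and of whatever eluted with them, not of sorted cells. With 1 pooled library per group there are no replicates. Every interval and p-value below covers counting error and compares 2 libraries, not sedentary with exercised mice.

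White blood cells share a small set of miRNAs that shape their development and activation. miR-142 is made from a single hairpin in nearly all blood lineages, platelets included, and both of its arms are known to be functional. The miR-181 family tunes receptor signaling in developing T cells but is also found in brain and endothelium. miR-150 is abundant in mature lymphocytes, where it restrains the transcription factor Myb. miR-155 and miR-146a are induced when immune cells are activated, and act as a promoter and a brake of inflammatory signaling. A mature miRNA finds its targets mainly through its seed, the stretch near its 5′ end that pairs with messenger RNA.

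The sequences below show which members can be told apart by a read and which share a seed. They are the RefSeq mature sequences on GRCm38.p6, written 5′ to 3′, with the seed (bases 2 to 8) in capitals. RefSeq sequences were matched by name for 6 of the 7 members.
mmu-miR-142a-5p: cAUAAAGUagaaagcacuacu
mmu-miR-142a-3p: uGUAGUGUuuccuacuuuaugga
mmu-miR-181a-5p: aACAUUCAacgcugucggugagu
mmu-miR-181b-5p: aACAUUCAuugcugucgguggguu
mmu-miR-155-5p: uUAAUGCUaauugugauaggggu
mmu-miR-146a-5p: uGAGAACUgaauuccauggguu

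mmu-miR-181a-5p and mmu-miR-181b-5p shared the seed ACAUUCA with mmu-miR-181c-5p and mmu-miR-181d-5p. mmu-miR-146a-5p shared GAGAACU with mmu-miR-146b-5p. No other listed miRNA with a RefSeq sequence carried the seed of mmu-miR-142a-5p, mmu-miR-142a-3p or mmu-miR-155-5p. Both arms of miR-142a lie in the Mir142 hairpin of 64 bases at chr11:87756864-87756927 (plus strand), in an intron of the long noncoding RNA Mir142hg on the same strand. The hairpin is shown with the 5p arm and then the 3p arm in capitals, since the comparison of these arms follows.
Mir142: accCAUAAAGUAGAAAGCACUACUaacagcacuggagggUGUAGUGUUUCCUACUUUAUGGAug

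In these libraries, the members together made up a smaller part of the EV miRNAs after exercise than at rest. They held 229 of 2851 miRNA counts in the sEV library, which is 8.03% (95% Wilson interval 7.09% to 9.09%). In the eEV library they held 28 of 820 counts, or 3.41% (2.37% to 4.89%). The summed share was 2.35-fold lower in eEVs (95% exact interval 1.58 to 3.62). Without both arms of miR-142a the remaining members went from 74 counts to 7, a share 3.04-fold lower in eEVs (1.40 to 7.82), but 63 of the 74 and 6 of the 7 were mmu-miR-181b-5p. The species mmu-miR-142a-5p, mmu-miR-142a-3p and mmu-miR-181b-5p, held 95.2% of the members' counts in sEVs and 96.4% in eEVs. Only shares of each pooled library were measured. Fewer EVs from a cell type, fewer copies per EV and more of other miRNAs therefore cannot be told apart.

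**Figure D1:**
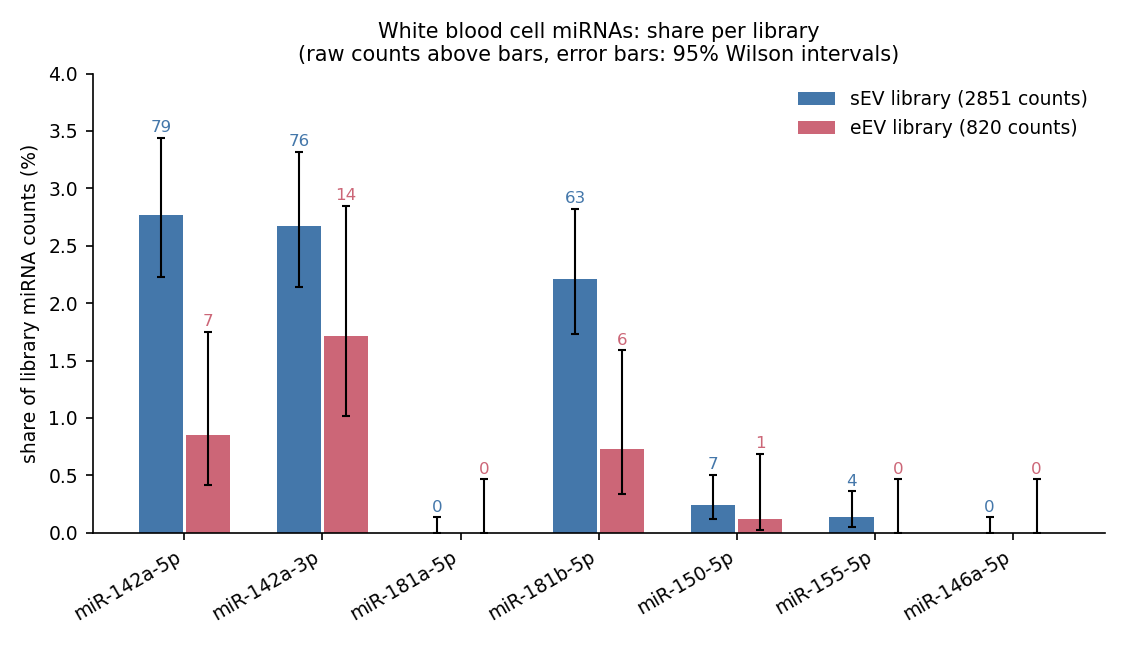
Share of each library's miRNA counts (%, linear axis) held by the 7 members in sEVs (blue) and eEVs (red), with 95% Wilson intervals and the raw counts above the bars. The intervals of mmu-miR-142a-5p and mmu-miR-181b-5p do not overlap between the libraries, those of mmu-miR-142a-3p do, and mmu-miR-181a-5p and mmu-miR-146a-5p are at 0 in both.

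Of the 7 members, 5 had a count and could be tested, and 2 of these, mmu-miR-142a-5p and mmu-miR-181b-5p, had a lower share in eEVs at an adjusted p below 0.05. Each miRNA was set against the rest of its library in Fisher's exact test (two-sided), with p-values adjusted by Benjamini-Hochberg over the 117 miRNAs with a count. Over all 117, 4.27% were called lower in eEVs and 22, or 18.8%, were called higher. Of the 22, 17 had 0 counts in sEVs, and 13 of these had 3 in eEVs, the limit that a count of 0 allows. With the sEV library 3.48 times as deep, 3 counts against 0 sufficed for a higher call, whereas 16 against 0 for mmu-miR-122-5p was not called lower (adjusted p = 0.121, Fisher's exact test). The calls in the 2 directions are therefore not on an equal footing. No member was called higher. The 4 members counted in both libraries had log2 fold changes with a median of -1.30, against -0.52 over the 31 miRNAs counted in both. Given how the members were chosen, the count and the median are descriptions.

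miR-142a gave the most counts of the 7 members. mmu-miR-142a-5p had 79 counts in sEVs, where it ranked 4 among all miRNAs, and 7 in eEVs, where it ranked 13. At the depth of the eEV library its share in sEVs would have given 22.7 counts. The share was 2.77% in sEVs (95% Wilson interval 2.23% to 3.44%) and 0.854% in eEVs (0.414% to 1.75%), 3.25-fold lower in eEVs (exact interval 1.50 to 8.34). The adjusted p was 0.0118 in Fisher's exact test. It ranged from 0.00483 to 0.390 over 7 alternatives and was above 0.05 in the 3 exact tests that assumed variation between libraries, so the call covers counting error alone.

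mmu-miR-142a-3p, the partner arm, did not pass the test. It had 76 counts in sEVs, or 2.67% (95% Wilson interval 2.14% to 3.32%), and 14 in eEVs, or 1.71% (1.02% to 2.85%). It ranked 8 in sEVs and 6 in eEVs. Its share was 1.56-fold lower in eEVs, but the exact interval runs from 0.876 to 2.99 and includes no difference (adjusted p = 0.319, Fisher's exact test). These counts leave room for a fall of the 3p arm almost as large as that of the 5p arm, and for a slight rise.

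**Figure D2:**
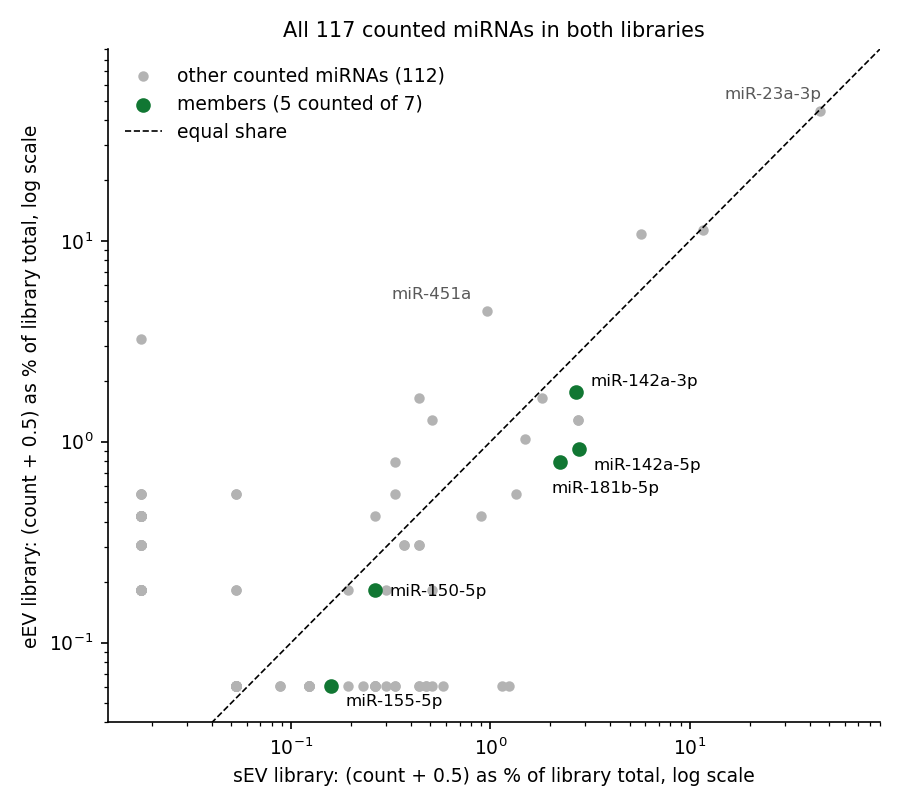
Share of each of the 117 counted miRNAs in the sEV library (x axis) and the eEV library (y axis), in % of library counts after adding 0.5 counts to each miRNA, both axes on a log scale. Members are green, other miRNAs grey, and the dashed line marks equal shares; all 5 counted members lie below the line, and mmu-miR-155-5p, with 0 counts in eEVs, is on the lowest row.

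The ratio of the arms does not depend on the library totals. In sEVs the 5p arm took 51.0% of the counts on both arms (95% exact interval 42.8% to 59.1%), a 5p to 3p ratio of 1.04 (0.749 to 1.44). In eEVs the 5p arm took 33.3% (14.6% to 57.0%), a ratio of 0.50 (0.171 to 1.32). The arms were thus near balance in sEVs, while in eEVs the 3p arm had more counts than the 5p arm. The ratio in eEVs was 0.481 of that in sEVs, with an exact interval from 0.156 to 1.36 that includes no difference. The split of counts between arms was compared across libraries by Fisher's exact test, with a two-sided p of 0.164, or 0.329 after adjustment over the 2 ratios examined. A change in arm usage was not detected with the 21 counts on this hairpin in eEVs.

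Other hairpins give a scale for the arm ratio. Among hairpins with an arm pair of their own by name, 15 had more than 3 counts on each arm in at least 1 library, miR-142a included. A further 4 pairings of let-7a and let-7c arms met the same minimum but were left out, since the 5p arm there is shared by several hairpins. In 8 of the 15 hairpins both arms had exactly the same count in both libraries. mmu-miR-677 had 78 on each arm in sEVs and 10 in eEVs. mmu-miR-345 and mmu-miR-3068 had 2 on each arm in eEVs. The rest of the 8 had 0 on both arms in eEVs, so their equal arms rest on sEVs alone. miR-142a was among the 7 with unequal arms, and among these only it and mmu-let-7b had counts on both arms in both libraries. mmu-miR-126a, known from endothelium and platelets, had 9 counts on the 5p arm and 14 on the 3p arm in sEVs. In eEVs it had 6 and 0, so its 5p share went from 39.1% (95% exact interval 19.7% to 61.5%) to 100% (54.1% to 100%). The 5p share of mmu-let-7b went from 58.3% (27.7% to 84.8%) to 75.0% (19.4% to 99.4%). These point estimates rose while that of miR-142a fell, and for miR-142a no change was detected. mmu-miR-122, the liver miRNA, had 80.0% of its counts on the 5p arm in sEVs (56.3% to 94.3%). The tables hold no reads, so whether a read on the Mir142 hairpin was counted on both arms was not tested. If some were, the arms would not be independent. The intervals of their ratio would then not hold, nor would those of the members' summed share, which adds both arms. With miR-142a entered once, as the mean of its arms, the summed share in eEVs was 0.402 of that in sEVs. It was 0.425 with both arms, and the library totals were left unchanged.

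**Figure D3:**
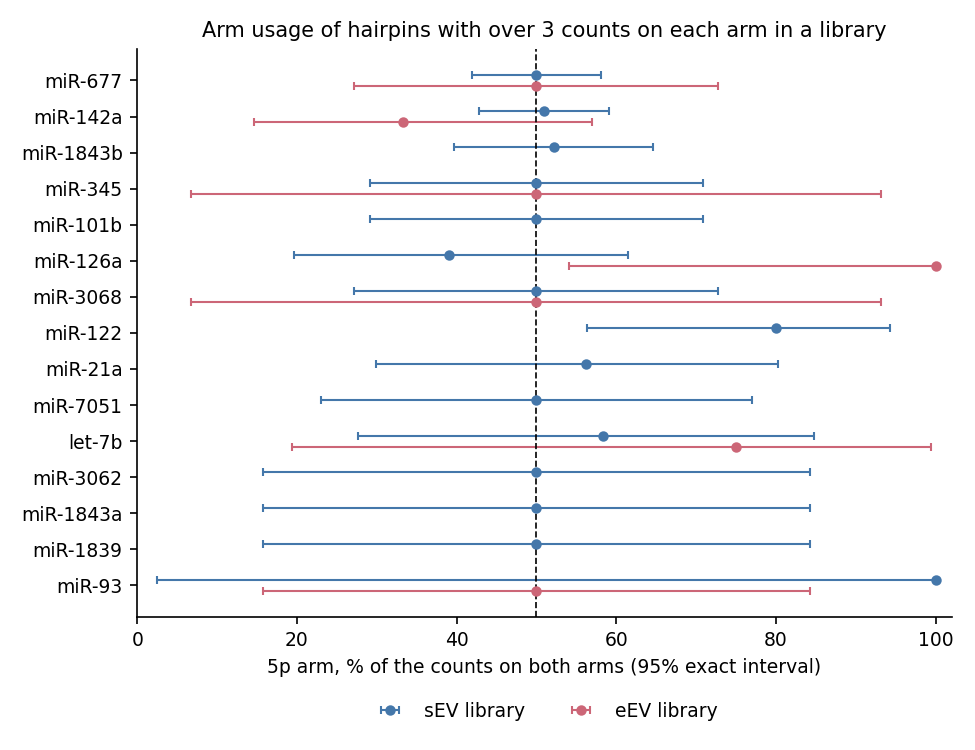
Percent of the counts on both arms that fell on the 5p arm, for the 15 hairpins with their own arm pair and more than 3 counts on each arm in a library, in sEVs (blue) and eEVs (red) with 95% exact intervals. The dashed line marks 50.0%, where the 8 hairpins with equal arm counts lie; miR-142a is at 51.0% in sEVs and 33.3% in eEVs with intervals that overlap.

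The miR-181 family was represented by miR-181b alone. mmu-miR-181b-5p had 63 counts in sEVs, where it ranked 9, and 6 in eEVs, where it ranked 15. Its share was 2.21% in sEVs (95% Wilson interval 1.73% to 2.82%) and 0.732% in eEVs (0.336% to 1.59%), 3.02-fold lower in eEVs (exact interval 1.31 to 8.54). The adjusted p was 0.0482 in Fisher's exact test and rose to 0.0638 when library totals were multiplied by TMM factors (edgeR's trimmed-mean scaling), so this call depends on the scaling. It was also lost in the 3 exact tests that assumed variation between libraries, and over all 7 alternatives the adjusted p of the exact tests ranged from 0.0267 to 0.476.

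mmu-miR-181a-5p, which is made from hairpins next to those of miR-181b, had 0 counts in both libraries. This allows a share of up to 0.105% in sEVs and 0.366% in eEVs, taking 3 counts as the limit. The observed count of mmu-miR-181b-5p was 21.0 times that limit in sEVs and 2.00 times it in eEVs, with its own counting error left aside. With the counting error of both species, the lower exact 95% limits of the miR-181b to miR-181a ratio were 16.6 in sEVs and 1.18 in eEVs. Since mmu-miR-181a-5p was at 0 in both libraries, a change of the ratio between them could not be measured, and Fisher's exact test gives p = 1.00 whatever the counts of miR-181b.

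The sequences of this pair are close but distinct. Counted from 1 at the 5′ end, the changes from mmu-miR-181a-5p to mmu-miR-181b-5p were A9U, C10U and A21G over 23 compared positions, and mmu-miR-181b-5p is 1 base longer. Their longest common run was 10 bases. From mmu-miR-181b-5p to mmu-miR-181d-5p, which is 1 base shorter, the change over the compared positions was C12U. mmu-miR-181c-5p and mmu-miR-181d-5p also had 0 counts. How the authors' counting treated reads with a mismatch, or reads that match more than 1 miRNA, is not given in the sources used here. Whether such rules assigned reads of these relatives to mmu-miR-181b-5p was not tested, so the 0 counts and the bounds above hold for the counts as deposited. The hairpins of miR-181a and miR-181b are paired at 2 places in GRCm38. Mir181a-1 (chr1:137966455-137966541) is followed by Mir181b-1 (chr1:137966639-137966718) after 97 bases, both in an intron of the noncoding gene Gm4258 and overlapping an exon of A430106G13Rik on the same strand. Mir181a-2 (chr2:38852735-38852810) is followed by Mir181b-2 (chr2:38853830-38853918) after 1019 bases, both opposite an intron of Nr6a1. The mature mmu-miR-181b-5p is the same from both places, so its counts cannot be assigned to either.

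The lymphocyte and activation miRNAs were rare or not counted. mmu-miR-150-5p had 7 counts in sEVs, 0.246% of the library, and 1 in eEVs, 0.122%. The ratio of these shares, eEV over sEV, was 0.497 with an exact interval from 0.0110 to 3.87 (adjusted p = 0.933, Fisher's exact test). No difference was detected, and its share in sEVs would have given only 2.01 counts in the eEV library, which leaves little room to see a fall.

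mmu-miR-155-5p had 4 counts in sEVs, 0.140% of the library, and 0 of 820 in eEVs, where 3 counts would be a share of 0.366%. That limit is above its share in sEVs, so no fall could have been detected (adjusted p = 0.819, Fisher's exact test). Having 0 counts in eEVs was common, since 62.2% of the 82 miRNAs counted in sEVs were at 0 there. Its hairpin, Mir155, lies at chr16:84714140-84714204 in an exon of the noncoding RNA Mir155hg.

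mmu-miR-146a-5p, from the Mir146 hairpin at chr11:43374397-43374461 on the minus strand, had 0 counts in both libraries, with the same limits as for mmu-miR-181a-5p. Of the 1915 listed mouse miRNAs, 93.9% were at 0 in both. The label of white blood cells thus rests in these data on miR-142a and mmu-miR-181b-5p, which other blood cells or tissues also make, while the other members gave between 0 and 7 counts.

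**Figure D4:**
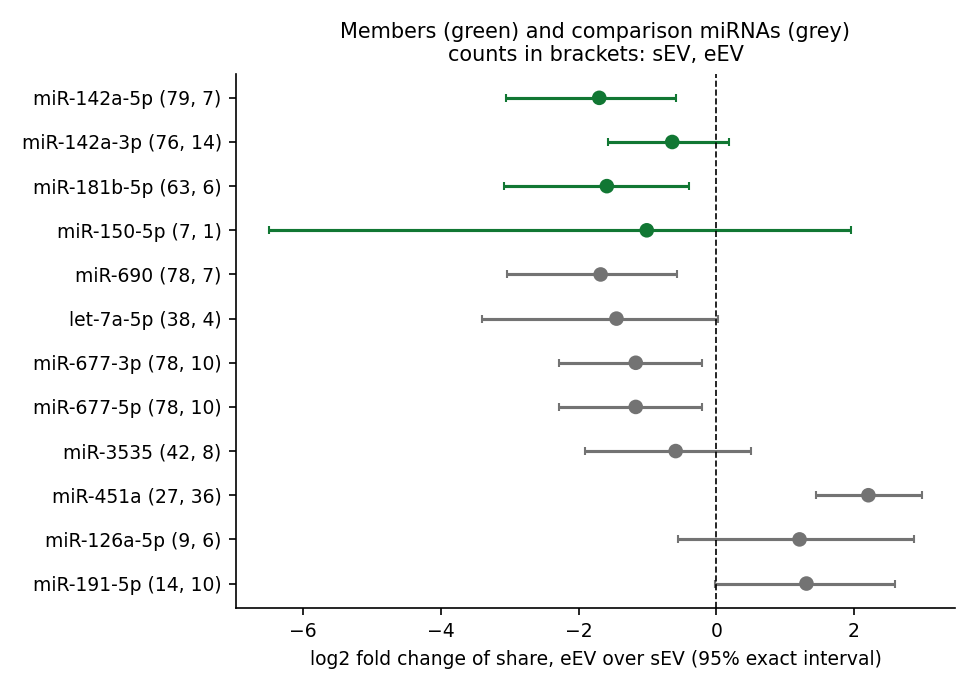
Log2 fold change of the share of miRNA counts, eEV over sEV, with 95% exact intervals, for the 4 members counted in both libraries (green) and for miRNAs set beside them (grey); raw counts are in brackets. The intervals of mmu-miR-142a-5p and mmu-miR-181b-5p lie below 0, those of mmu-miR-142a-3p and mmu-miR-150-5p include 0, and that of the red cell mmu-miR-451a lies above 0.

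Partner arms and relatives added nothing to these counts. The list held 14 species, namely the 3p arms of the miR-181, miR-150, miR-155 and miR-146 hairpins, mmu-miR-181c-5p, mmu-miR-181d-5p, mmu-miR-146b-5p and mmu-miR-142b. All 14 were listed at 0 in both libraries. miR-142a was therefore the only member hairpin with counts on both arms. mmu-miR-142b is annotated on the strand opposite Mir142, and its 20 bases lie within the reverse complement of mmu-miR-142a-3p.

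A further 25 miRNAs with known roles in white blood cells were examined, of which 15 were at 0 in both libraries and 0 were counted in both. Counts in sEVs only were found for 6. These were mmu-miR-21a-5p with 9 counts, mmu-miR-29c-3p with 8, mmu-miR-16-5p with 7, mmu-miR-223-3p, a myeloid and platelet miRNA, with 5, mmu-miR-15a-5p with 3 and mmu-miR-10a-5p with 1. Counts in eEVs only were found for 4. These were mmu-miR-125a-5p and mmu-miR-20a-5p with 3 each, mmu-miR-92a-3p with 2 and mmu-miR-342-3p with 1. Over all 117 counted miRNAs, 51 were counted in sEVs only, 35 in eEVs only and 31 in both. Of all 1915 listed, 93.9% were at 0 in both. At counts this low, the split between libraries is not read as a trait of the list.

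Together these 25 took a share of 1.16% in sEVs (95% Wilson interval 0.825% to 1.62%) and of 1.10% in eEVs (0.578% to 2.07%). The ratio of these shares, 0.948, had an exact interval from 0.399 to 2.03, which includes both no difference and the 0.425 found for the 7 members. Of the 25, 0 were called lower in eEVs and 2, mmu-miR-125a-5p and mmu-miR-20a-5p, of the 10 counted were called higher, beside 18.8% of all counted miRNAs (adjusted p = 0.0482 each, Fisher's exact test). Their 3 counts do not exceed the limit set for a count of 0, so no fold change is given.

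Among markers of other cells, only mmu-miR-451a passed an adjusted p of 0.05. Of the 5 red cell miRNAs examined, only mmu-miR-451a was counted, with 27 counts or 0.947% in sEVs and 36 or 4.39% in eEVs (adjusted p = 9.87e-08, Fisher's exact test), while both arms of mmu-miR-144 and mmu-miR-486a-5p and mmu-miR-486b-5p were at 0. mmu-miR-16-5p, which red cells also carry but which was placed in the list of 25, went from 7 counts to 0. The 4 platelet and endothelial miRNAs (both arms of mmu-miR-126a, mmu-miR-191-5p and mmu-miR-223-3p) went from 1.47% to 1.95% of library counts. Their summed share was 1.32-fold higher in eEVs, with an exact interval from 0.695 to 2.41. This sum joins mmu-miR-126a-3p with 14 counts in sEVs and 0 in eEVs and mmu-miR-223-3p with 5 and 0 to mmu-miR-126a-5p with 9 and 6 and mmu-miR-191-5p with 14 and 10, and 0 of the 4 passed the test. With mmu-miR-21a-5p of the list of 25, which platelets and endothelium also make, the sum was 51 counts in sEVs and 16 in eEVs, or 1.79% and 1.95%. Of the 3 liver miRNAs, mmu-miR-122 had 20 counts over its arms in sEVs and 0 in eEVs, mmu-miR-192-5p was at 0, and 0 of the 3 passed the test. All 6 striated muscle miRNAs were at 0 in both libraries. The part of these markers in the lower shares of mmu-miR-142a-5p and mmu-miR-181b-5p was not tested.

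The fold changes nearest to that of mmu-miR-142a-5p, among the 14 other miRNAs with more than 3 counts in both libraries, were those of mmu-miR-690, mmu-let-7a-5p, both arms of mmu-miR-677 and mmu-miR-3535. mmu-miR-690 had 78 counts in sEVs and 7 in eEVs, and its log2 fold change of -1.68 differed by 0.02 from that of mmu-miR-142a-5p. mmu-let-7a-5p was at -1.45 (95% exact interval -3.40 to 0.02) and mmu-miR-3535 at -0.59 (-1.90 to 0.51). With only 2 libraries, a like fold change says that the counts fell in a like proportion and nothing more.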

How the data were processed

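Small RNA libraries (TruSeq Small RNA, 50 nt single-end reads) were made from pooled plasma EVs, 1 per group. The authors deposited raw read counts for each mature miRNA, and a second table that gives each count as a fraction of its library total. It held the 117 miRNAs with a count, and its values were checked against the counts. Aligner, miRNA reference, genome build and treatment of mismatches are not given in the sources used here. The 67 columns named for other organisms were not used. The sEV library held 2851 counts and the eEV library 820. A count of 0 allows up to 3 counts, or 0.105% and 0.366%.

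The tests were computed from the deposited counts. Shares have Wilson intervals, and fold changes have intervals that are exact given the sum of both counts. A fold change is not given where both counts are 3 or fewer. Reads carry no molecular identifiers, so intervals and limits cover counting error only. With 1 library per group, edgeR's quasi-likelihood model could not be fitted. The arm ratio and the miR-181b to miR-181a ratio were given exact binomial intervals. Adjusted p-values are Benjamini-Hochberg values over 117 miRNAs, except for the 2 ratios, which were adjusted together. The code for Fisher's exact test and the fold change intervals was tested on simulated data. The members and lists were chosen with earlier results of these data known. Named were the members, their partner arms and relatives, the counted species of the list of 25, the marker lists, the 5 nearest fold changes and hairpins with their own arm pair and over 3 counts on each arm. Sequences are from RefSeq and host genes from GENCODE M21, both on GRCm38, matched by name. Python 3.11.15, scipy 1.17.1, R 4.3.3, edgeR 4.0.16 and DESeq2 1.42.0 were used. The alternatives were other scalings, 0.5 added counts, other filters and an assumed variation between libraries.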

Additional observations from a re-analysis of the deposited data

How the results depend on the processing

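The 4 members counted in both libraries had a log2 fold change below 0 under each of the 5 alternatives run for it. All 20 values lay within the interval of the reported value, but they are not 20 separate checks. The deposited fractions are the counts over the library totals, so their values repeat the reported ones. Each of the other scalings moves every log2 fold change by the same amount. TMM factors raised every log2 fold change by 0.17 and DESeq2's size factors by 0.52, which put mmu-miR-142a-5p at -1.17, mmu-miR-181b-5p at -1.07 and mmu-miR-142a-3p at -0.12. The calls were less stable. In edgeR's exact test, with the biological coefficient of variation between libraries assumed to be 0.1, 0.2 or 0.4, the adjusted p of mmu-miR-142a-5p was 0.0501, 0.306 or 0.390, and that of mmu-miR-181b-5p was 0.194, 0.342 or 0.476. With TMM-scaled totals that of mmu-miR-181b-5p was 0.0638. The number of members called lower fell from 2 to 1 with TMM-scaled totals and to 0 at each assumed variation, and that of all miRNAs called lower fell from 5 to 2, 2 and 0. The latter count was 7 when only miRNAs with 5 or more counts were adjusted together, 7 without the most abundant species in the totals, 5 with identical arms tested once and 4 with TMM-scaled totals. Over the 7 alternatives, mmu-miR-142a-5p was called in 4 (0.00483 to 0.390), mmu-miR-181b-5p in 3 (0.0267 to 0.476) and mmu-miR-142a-3p in 0 (0.262 to 0.717). With 0.5 counts added, the ratio of mmu-miR-181b-5p to mmu-miR-181a-5p became 127 in sEVs and 13.0 in eEVs, values set by the added count. With 820 counts in eEVs, the arm ratio and the rare members are limited by depth. No paired analysis was possible because each group has 1 library.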

Other observations

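Ratios within a library do not depend on its total. The ones given here were chosen after the values were seen, and carry no test. mmu-miR-142a-5p had 1.25 counts for each count of mmu-miR-181b-5p in sEVs (95% exact interval 0.889 to 1.77) and 1.17 in eEVs (0.336 to 4.20). These species come from unrelated hairpins, and the intervals overlap. For mmu-miR-142a-3p the ratio to mmu-miR-181b-5p was 1.21 in sEVs (0.852 to 1.71) and 2.33 in eEVs (0.842 to 7.41). Against the red cell mmu-miR-451a, mmu-miR-142a-5p went from 2.93 counts per count in sEVs (1.87 to 4.71) to 0.194 in eEVs (0.0730 to 0.443), and mmu-miR-142a-3p from 2.81 (1.79 to 4.54) to 0.389 (0.194 to 0.739). The share of mmu-miR-451a itself was 4.64-fold higher in eEVs (2.74 to 7.94), and this enters both changes. The other miRNAs of the red cell list were at 0 in both libraries. Against mmu-miR-23a-3p, the most abundant species of both libraries, the ratio of mmu-miR-142a-5p in eEVs was 0.316 of that in sEVs (0.122 to 0.690), and that of mmu-miR-142a-3p was 0.656 (0.338 to 1.19).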
